A study of Homo sapiens with 4 samples.

Results

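The transcription factor genes SNAI1, SNAI2, SNAI3, TWIST1, TWIST2, ZEB1, ZEB2, PRRX1, FOXC2 and TCF4 are grouped here as factors of epithelial-mesenchymal transition (EMT). They were examined in MCF10A, an immortalised human mammary epithelial cell line that does not form tumours. They are 10 of 19970 protein-coding genes on chromosomes 1 to 22 and X, chosen by name, and every deposited peak over each gene record and 10 kb on each side was taken. Chromatin immunoprecipitation and sequencing gave 1 library each for H3K4me3, H3K79me2 and H3K27me3, from cells grown with 100 ng/ml cholera toxin in a medium made for mammary epithelium, and an input DNA library of the same cells for which no peak list was analysed here. No treatment was compared. Marks were set side by side at each gene, and these genes beside all protein-coding genes. With 1 library per mark no value has a replicate error and no test was made. The read depth behind the peaks is unknown, and a mark present in some of the cells and a weaker mark in all of them cannot be told apart.

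EMT factors let epithelial cells loosen their junctions and move, in embryos, wound repair and carcinoma. SNAIL and ZEB proteins are zinc finger repressors that bind E-boxes, among them those of the E-cadherin gene CDH1. TWIST proteins and TCF4 (also called E2-2) are basic helix-loop-helix factors, and TCF4 is an E protein that pairs with tissue-restricted partners. PRRX1 is a homeodomain factor of mesenchyme and FOXC2 a forkhead factor. H3K4me3 marks promoters that are active or held ready, DOT1L places H3K79me2 over the first part of transcribed genes, and Polycomb complex PRC2 places H3K27me3 on genes kept silent. In the mammary gland SNAI2 is known for its place in basal and progenitor cells.

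Of these genes, TWIST2, ZEB1, ZEB2, PRRX1 and TCF4 have start sites in the RefSeq promoter table of GRCh38.p14, 20 sites in all, of which 7 belong to ZEB1 and 10 to TCF4. The 250 bases before 8 of them are printed 5′ to 3′ with CpG dinucleotides in capitals, to show starts with many and few CpGs, among them TCF4 starts with and without H3K4me3. Sites are numbered along the direction of transcription.
TWIST2 site 1, chr2:238847835-238848084, plus strand: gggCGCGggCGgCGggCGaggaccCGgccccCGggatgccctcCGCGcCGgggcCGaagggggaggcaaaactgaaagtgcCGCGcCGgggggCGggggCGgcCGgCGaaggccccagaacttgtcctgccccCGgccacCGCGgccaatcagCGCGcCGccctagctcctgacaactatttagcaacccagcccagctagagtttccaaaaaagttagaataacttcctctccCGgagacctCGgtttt
ZEB1 site 1, chr10:31318167-31318416, plus strand: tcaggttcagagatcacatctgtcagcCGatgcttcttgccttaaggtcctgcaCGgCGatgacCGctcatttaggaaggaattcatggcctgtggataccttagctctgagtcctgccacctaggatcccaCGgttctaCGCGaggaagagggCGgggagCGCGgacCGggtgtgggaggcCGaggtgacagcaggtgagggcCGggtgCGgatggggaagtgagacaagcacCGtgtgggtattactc
ZEB2 site 1, chr2:144520120-144520369, minus strand: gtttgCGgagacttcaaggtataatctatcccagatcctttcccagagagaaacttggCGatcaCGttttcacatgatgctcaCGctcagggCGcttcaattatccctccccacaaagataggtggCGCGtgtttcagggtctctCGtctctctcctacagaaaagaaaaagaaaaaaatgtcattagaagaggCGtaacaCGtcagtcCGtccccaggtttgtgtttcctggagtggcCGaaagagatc
PRRX1 site 1, chr1:170663881-170664130, plus strand: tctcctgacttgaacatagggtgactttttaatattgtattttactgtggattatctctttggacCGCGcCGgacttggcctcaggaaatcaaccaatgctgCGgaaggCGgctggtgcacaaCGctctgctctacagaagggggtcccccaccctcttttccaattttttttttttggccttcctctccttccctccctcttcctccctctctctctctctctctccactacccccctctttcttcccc
TCF4 site 1, chr18:55635958-55636207, minus strand: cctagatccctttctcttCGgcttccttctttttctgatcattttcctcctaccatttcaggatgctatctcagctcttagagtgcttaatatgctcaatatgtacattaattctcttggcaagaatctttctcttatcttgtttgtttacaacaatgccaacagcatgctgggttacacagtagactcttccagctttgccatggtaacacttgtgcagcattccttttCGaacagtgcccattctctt
TCF4 site 2, chr18:55589812-55590061, minus strand: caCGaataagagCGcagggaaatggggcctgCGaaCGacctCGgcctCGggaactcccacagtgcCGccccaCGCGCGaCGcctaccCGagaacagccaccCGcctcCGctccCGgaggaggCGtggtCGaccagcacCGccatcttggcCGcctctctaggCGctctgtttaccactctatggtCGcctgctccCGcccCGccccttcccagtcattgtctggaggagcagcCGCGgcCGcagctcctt
TCF4 site 6, chr18:55422298-55422547, minus strand: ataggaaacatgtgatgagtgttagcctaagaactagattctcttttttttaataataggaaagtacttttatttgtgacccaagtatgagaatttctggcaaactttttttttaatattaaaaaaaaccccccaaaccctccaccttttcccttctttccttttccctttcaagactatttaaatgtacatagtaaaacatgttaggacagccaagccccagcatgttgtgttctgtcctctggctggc
TCF4 site 9, chr18:55321842-55322091, minus strand: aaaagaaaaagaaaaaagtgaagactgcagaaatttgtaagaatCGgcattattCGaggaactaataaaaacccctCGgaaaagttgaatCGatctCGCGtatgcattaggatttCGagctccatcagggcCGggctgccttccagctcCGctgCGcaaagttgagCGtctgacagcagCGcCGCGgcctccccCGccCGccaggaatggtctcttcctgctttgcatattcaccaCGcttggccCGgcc
The TWIST2 start had 26 CpGs in these 250 bases, ZEB1 site 1 had 15, ZEB2 had 12 and PRRX1 had 6, beside a median of 11 over the 35116 promoters of the table. Sites 1, 2, 6 and 9 of TCF4 had 2, 26, 0 and 18. The E-box of SNAIL and ZEB proteins, CACCTG or its reverse complement CAGGTG, had 1 match in ZEB1 site 1, 2 in the unprinted ZEB1 site 3 and 0 in the other listed starts, and it was found in 17.5% of all promoters over the same 250 bases. Both spellings belong to the wider E-box CANNTG, found in 61.8% of promoters.

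H3K4me3 was present at or inside every gene of the set, while at the start site H3K79me2 was called at some of them and H3K27me3 at SNAI3 alone. For H3K4me3 and H3K27me3 the window was 1000 bp on each side of the record's 5′ end, for H3K79me2 the 5000 bp inward from it (or the whole of a shorter gene), and a mark was called where 25% or more of its window lay under peaks. For SNAI1, SNAI2, SNAI3, TWIST1 and FOXC2, whose strand is not in the tables used here, both ends of the record were examined and the more covered one counted. H3K4me3 was called at 9 of the 10 genes, against 66.3% of all protein-coding genes, and the exception was TCF4. With q of 0.05 or below it was also 9, against 65% of all genes. H3K79me2 was called at 6 of the 10, against 49.9%, namely SNAI2, TWIST1, TWIST2, ZEB1, ZEB2 and FOXC2, and at 5, against 42.6%, with q of 0.05 or below, where ZEB2 was lost. H3K27me3 was called at 1 of the 10, SNAI3, against 7.47%, and at 1, against 4.7%, with q of 0.05 or below. Where 1 end was examined, H3K4me3 was called at 4 of 5 EMT factor genes, against 67.8% of such genes in all, H3K79me2 at 3 of 5, against 52.2%, and H3K27me3 at 0 of 5, against 6.5%. Where both ends were examined, the numbers were 5 of 5 against 60.5%, 3 of 5 against 40.9% and 1 of 5 against 11.2%.

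**Figure D1:**
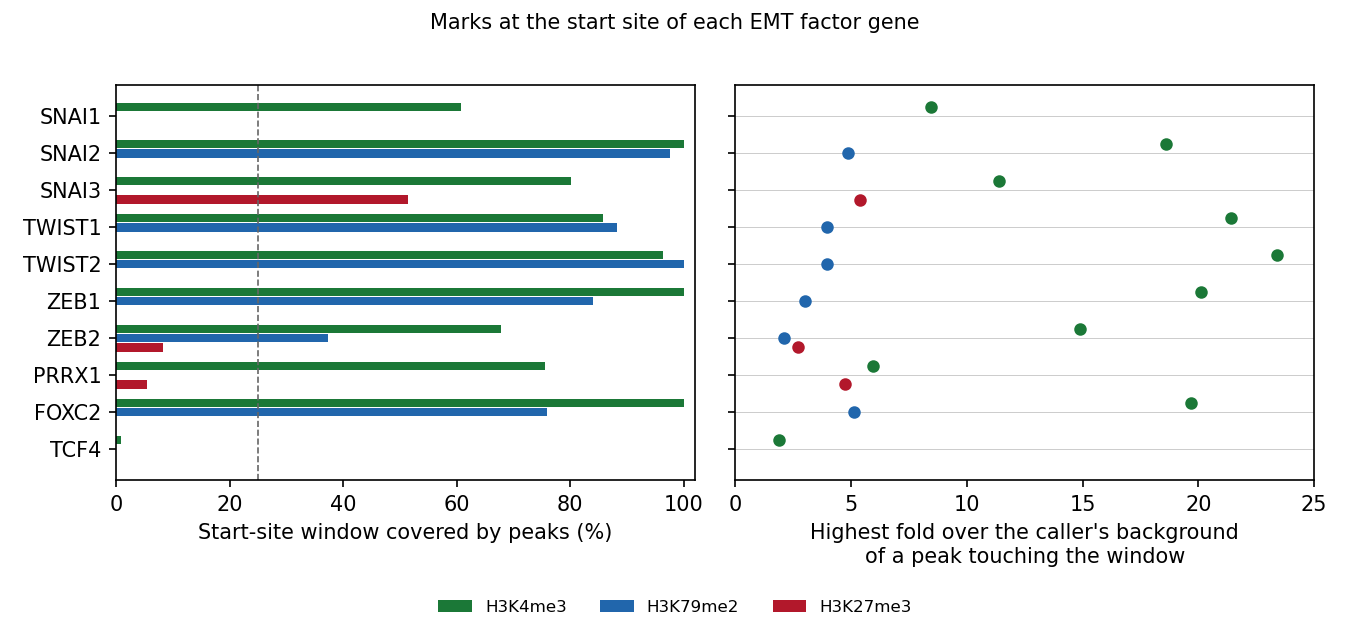
Marks at the start site of each EMT factor gene. Left, percent of the start-site window covered by deposited peaks, with the call threshold of 25% dashed; right, the highest fold over the caller's background among peaks that touch the window, with no point where no peak does. H3K4me3 passes the threshold at all genes but TCF4, H3K79me2 at 6 and H3K27me3 at SNAI3.

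Over the whole of each record and 10 kb around it, 37 H3K4me3, 147 H3K79me2 and 46 H3K27me3 peaks were deposited, of which 24, 9 and 7 had q of 0.05 or below. At least 500 bp of H3K4me3 lay at 10 of 10 genes, against 83.6% of all genes, and this held at 10 of 10 with q of 0.05 or below, against 79.5%. For H3K79me2 the number was 8, against 72.3% of all genes, and 5 with q of 0.05 or below, against 56.8%. For H3K27me3 it was 5, against 43.5%, and 2 with q of 0.05 or below, against 19.3%. The counts of H3K79me2 and H3K27me3 over the regions were thus close to the share among all genes, and the differences lay between single genes. TCF4, at 414 kb the longest, held 67 of the 147 H3K79me2 peaks and 0 of the 9 with q of 0.05 or below.

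The 3 SNAIL genes carried 3 different combinations. SNAI2, which encodes SLUG, lies at chr8:48917598-48921429 and its record of 3832 bp was covered from end to end by a single H3K4me3 peak of 5940 bp, 18.6-fold over the caller's background with −log10 q of 66.8. H3K79me2 covered 97.6% of the record, with a peak of 4343 bp at 4.88-fold (−log10 q 6.82), and 0 H3K27me3 peaks lay within 10 kb. Of all protein-coding genes, 4.38% had a start-site H3K79me2 peak at least this strong. The lncRNA record LOC107986942 begins 127 bp beyond SNAI2, and 1608 bp of the H3K4me3 lay over it.

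SNAI1, the gene of SNAIL, had H3K4me3 and no call of either other mark. Its record at chr20:49982980-49988886 had 1 H3K4me3 peak, of 1216 bp at 8.46-fold (−log10 q 18.8), from 713 bp outside the low-coordinate end to 502 bp inside. H3K79me2 covered 0% of the record, and within 10 kb a single peak of 150 bp at 2.08-fold and −log10 q of 0.543 was deposited beyond it. The only H3K27me3 peak in the region was 165 bp wide at 2.69-fold (−log10 q 0.702). Of all genes, 62.3% had an equally wide or wider H3K4me3 peak at the start, and 10.2% had one as wide as that of SNAI2.

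SNAI3 had H3K4me3 and H3K27me3 on the same bases. At the high-coordinate end of its record, chr16:88677688-88686507, an H3K4me3 peak of 1629 bp at 11.4-fold (−log10 q 29.8) shared 1030 bp with 3 H3K27me3 peaks, and whether the same cells carried both marks cannot be told from these libraries. The strongest of these, 253 bp at 5.39-fold with −log10 q of 4.59, had the highest H3K27me3 fold among the 46 peaks of the 10 genes, and 1.48% of protein-coding genes had a start-site H3K27me3 peak at least this strong. H3K27me3 covered 51.5% of the start-site window and 4 of the 6 peaks had q of 0.05 or below. H3K79me2 covered 0% of the record. The antisense lncRNA record SNAI3-AS1 spans all of SNAI3 and both marks, so these peaks cannot be assigned to either gene. With H3K27me3 peaks of −log10 q of at least 5, or of at least 5-fold, the call at SNAI3 was lost.

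**Figure D2:**
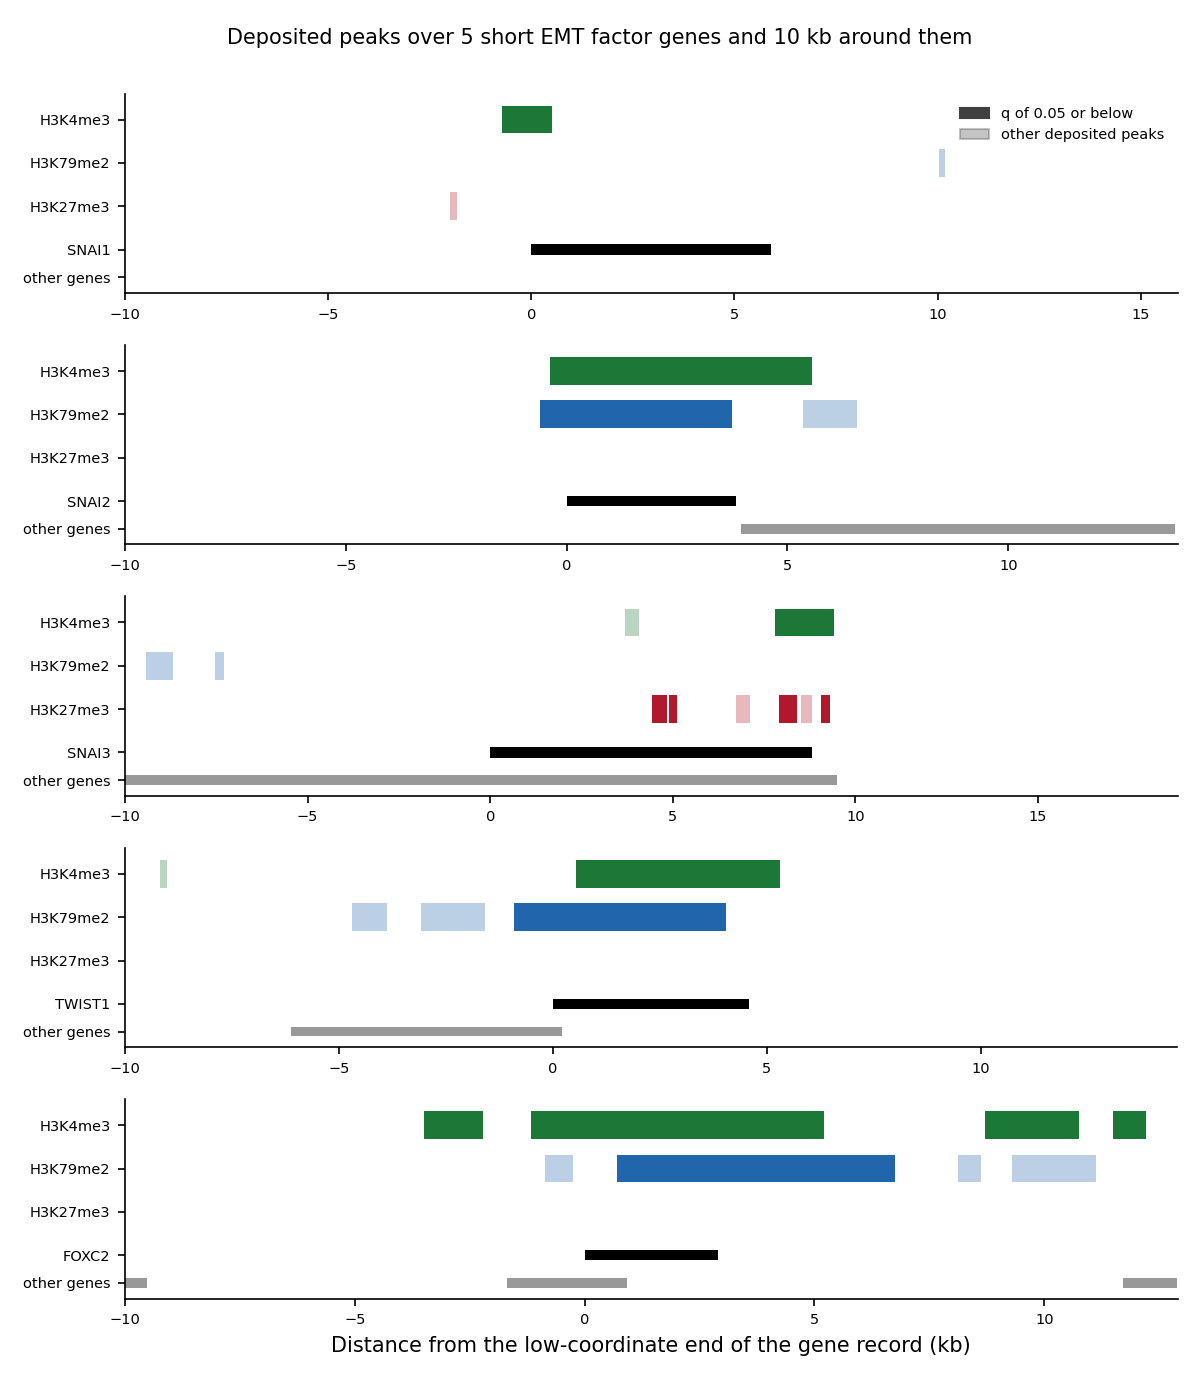
Deposited peaks over the 5 short EMT factor genes and 10 kb on each side, by distance in kb from the low-coordinate end of the record (black), with other gene records in grey. Full colour marks peaks with q of 0.05 or below and pale colour the others. H3K79me2 in full colour lies over SNAI2, TWIST1 and FOXC2, and H3K27me3 in full colour over SNAI3.

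Both TWIST genes carried H3K4me3 and H3K79me2, on records of very different length. TWIST1, at chr7:19113047-19117636, had an H3K4me3 peak of 4769 bp at 21.4-fold (−log10 q 74.6) over 88.3% of its record, and an H3K79me2 peak of 4964 bp at 3.96-fold (−log10 q 4.36) over the same share. These peaks shared 3516 bp, with H3K79me2 reaching 912 bp past the low-coordinate end, over the lncRNA record LOC124901597, and H3K4me3 reaching 715 bp past the other. TWIST2, at chr2:238848085-238910534, had the highest H3K4me3 fold of the set, 23.4 over 4907 bp (−log10 q 82.7), which 2.11% of protein-coding genes equalled or passed at the start. The peak also held a start of the lncRNA gene LOC100287387, whose record ends 177 bp before TWIST2, so it cannot be assigned to TWIST2 alone. TWIST2 H3K79me2 began 1095 bp before the start, in a peak of 20081 bp at 3.94-fold (−log10 q 4.15) that held the whole H3K4me3 peak and the same lncRNA start, and 6 further peaks brought the covered share of the 62450 bp record to 90.5%. With 10 kb on each side the share was 69.8%, which 4.79% of all genes reached. The longest H3K79me2 peak, 26442 bp and further into the gene, stood at 2.42-fold with −log10 q of 1.10, so past the first 20 kb most of the cover came from peaks above q of 0.05. H3K27me3 was limited to 1 peak of 228 bp at 3.08-fold (−log10 q 1.11) at TWIST2 and 0 at TWIST1.

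ZEB1 and ZEB2, paralogs that both repress CDH1, both had H3K4me3 at the start and differed in H3K79me2. At ZEB1, chr10:31318417-31529804, an H3K4me3 peak of 4880 bp at 20.1-fold (−log10 q 81.2) held all 7 listed starts and a start of the overlapping lncRNA gene ZEB1-AS1. H3K79me2 spanned the first start in a peak of 5217 bp at 3.0-fold (−log10 q 2.20) and went on in a peak of 42609 bp at 2.87-fold (−log10 q 2.0), which 4.01% of genes equalled or passed in length at the start. The pseudogene record SPTLC1P1 and part of LOC100505502 lay under the longer peak. H3K79me2 covered 92.0% to 100% of each 10 kb stretch over the first 40 kb, 77.9% of the next, and 0% of the last stretches past 200 kb. The peaks of 5217 and 42609 bp were those with q of 0.05 or below among 27 at ZEB1. None of the 6 H3K27me3 peaks in the region, 1.92- to 3.08-fold, had q of 0.05 or below.

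At ZEB2, chr2:144384081-144520119, the H3K4me3 peak was 5050 bp wide at 14.9-fold (−log10 q 51.7). It ran from 356 bp before the start to 4693 bp into the gene, over the start of ZEB2-AS1 as well. The fold at ZEB2 was equalled or passed at the start by 40.6% of all genes, and that at ZEB1 by 10.7%. H3K79me2 came in 33 peaks of 1.73- to 2.43-fold, and all had −log10 q under 1.3, so 0 had q of 0.05 or below. They covered 61.0% of the first 10 kb and 69.8% of the next, and 23.3% of the record, against 55.5% of the ZEB1 record. In the 5000 bp inward from the start the cover was 37.3% at ZEB2 and 84.1% at ZEB1. The ZEB2 call was lost with stricter peaks, with a limit of 50% covered, and with a window of 2500 bp. A second H3K4me3 peak, 1300 bp at 7.74-fold (−log10 q 15.4), lay upstream, its far edge 4615 bp from the start, over the lncRNA records LINC01412 and LINC02993, and shared 165 bp with an H3K27me3 peak of 2.31-fold and −log10 q of 0.362. H3K27me3 covered 8.25% of the ZEB2 start-site window, by 1 peak of 2.69-fold (−log10 q 0.702). No test of the difference between ZEB1 and ZEB2 was possible with 1 library per mark.

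**Figure D3:**
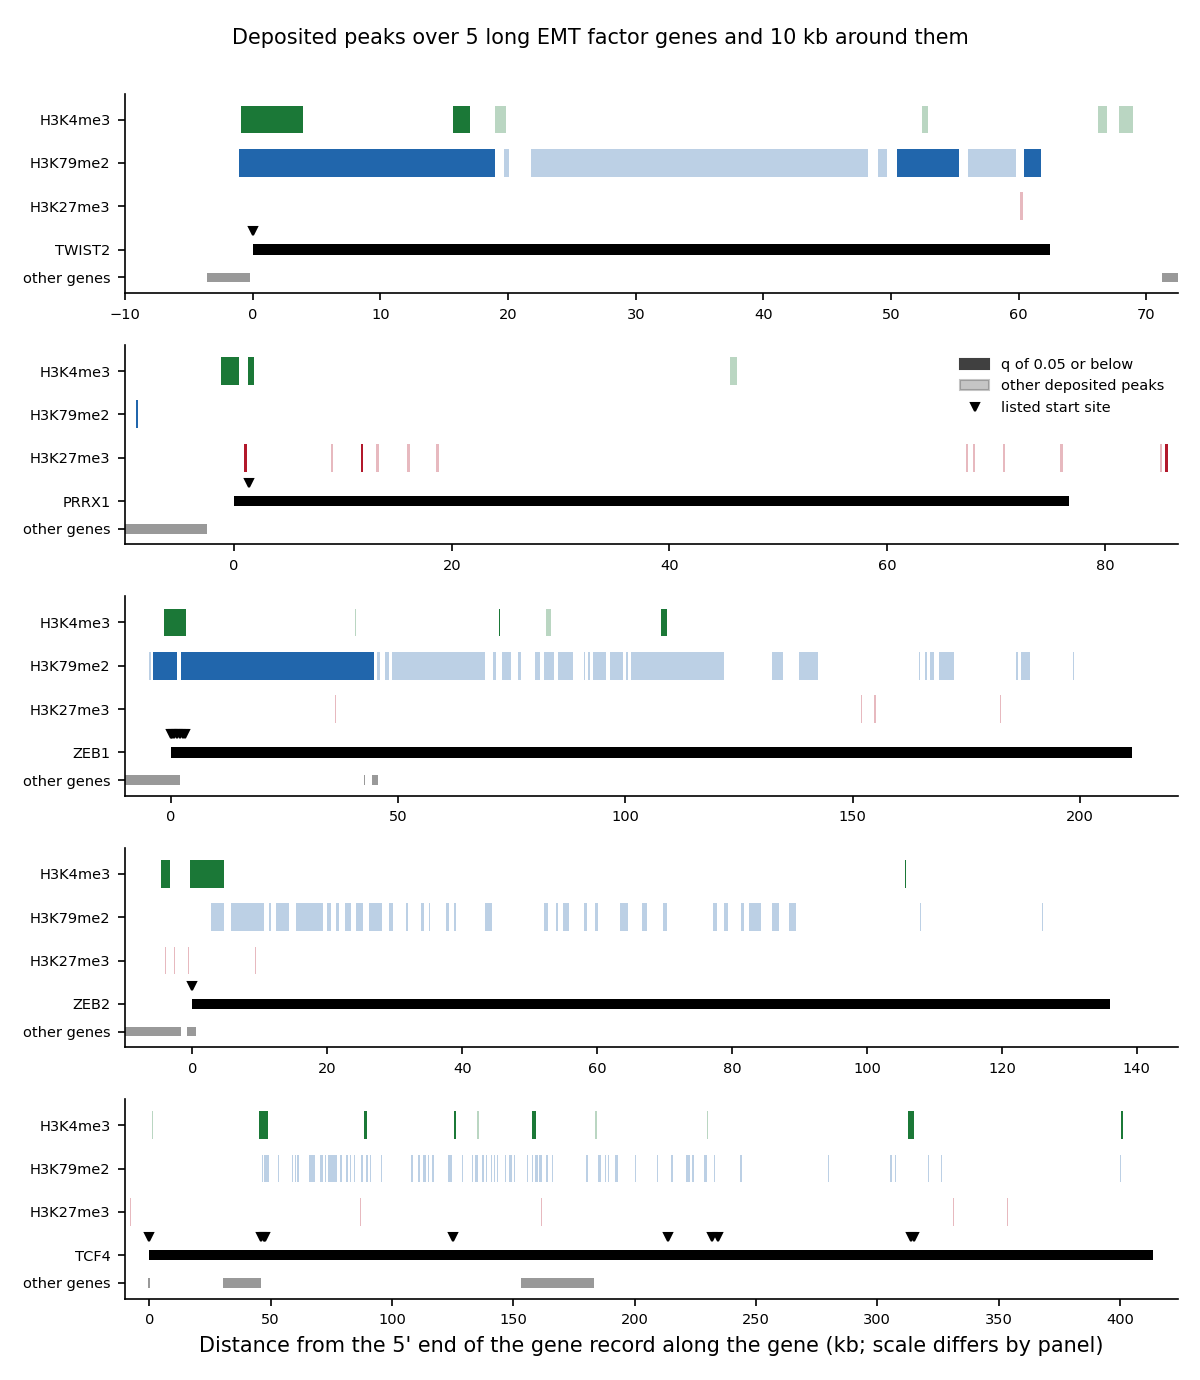
Deposited peaks over the 5 long EMT factor genes and 10 kb on each side, by distance in kb from the 5′ end of the record (black), with listed start sites as triangles and other gene records in grey. Full colour marks peaks with q of 0.05 or below. H3K79me2 in full colour covers the first 20 kb of TWIST2 and 40 kb of ZEB1, ZEB2 and TCF4 have pale H3K79me2 peaks, and PRRX1 has none inside its record.

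PRRX1 carried the weakest H3K4me3 among the 9 genes called and had H3K27me3 beside it. Its record at chr1:170662768-170739421 had an H3K4me3 peak of 1739 bp at 5.96-fold (−log10 q 9.84) across the record's 5′ end and a smaller one of 587 bp at 3.24-fold (−log10 q 2.80) over the listed start 1363 bp inside. Between them, from 892 to 1173 bp, lay an H3K27me3 peak of 282 bp at 4.75-fold (−log10 q 4.30), which shared 0 bp with either. That peak covers the first bases of the PRRX1 sequence printed above, the sparsest in CpG of the printed starts with H3K4me3. Of the 12 H3K27me3 peaks at PRRX1, 3 had q of 0.05 or below. At the record's 5′ end H3K4me3 covered 75.6% of the start-site window and H3K27me3 5.45%, under the threshold for a call. Around the listed start 1363 bp inside, H3K4me3 covered 36.8% and H3K27me3 14.1%. H3K79me2 covered 0% of the record, and its single peak, 196 bp at 2.72-fold, began 8983 bp before the record, over the lncRNA record LOC105371610. SNAI3 and PRRX1 were the genes of the set with any H3K27me3 peak of q of 0.05 or below, and both lacked H3K79me2 in the record.

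FOXC2 had the largest share of its region under H3K4me3 among the 10 genes. The record of 2900 bp at chr16:86566829-86569728 lay within an H3K4me3 peak of 6364 bp at 19.7-fold (−log10 q 72.8), and H3K4me3 covered 45.5% of the record and 10 kb around it, a share that 1.41% of protein-coding genes reached. Its H3K79me2 peak of 6054 bp had the highest fold of the set, 5.13 with −log10 q of 7.38, and began 700 bp inside the record and ended 3854 bp beyond it. Of all genes, 2.75% had a start-site H3K79me2 peak at least this strong, and 0 H3K27me3 peaks were deposited in the region. Further H3K4me3 peaks of 6.53-, 12.7- and 2.93-fold lay in the flanks. The last of these reached the record of the neighbouring forkhead gene FOXL1, 8820 bp away, and the lncRNA record FOXC2-AS1 overlaps 933 bp of FOXC2. Of the 10417 bp of H3K4me3 in the region, 7517 bp lay in the flanks and 2590 bp over other gene records. The covered share depends on record length, and genes of like length were not compared.

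At TCF4, chr18:55222185-55635957, H3K4me3 lay at starts inside the record. The 5′ end of the record, within the pseudogene RPL21P126, had 0.8% of its window covered by a peak of 1.9-fold with −log10 q of 0.0542, and the nearest H3K4me3 peak with q of 0.05 or below was 45331 bp away. Sites 2, 3 and 4, from 46.1 to 47.8 kb into the record, lay in an H3K4me3 peak of 3595 bp at 17.6-fold (−log10 q 67.3), which also held a start of the lncRNA gene LOC105372126. Sites 9 and 10, at 314 and 315 kb, lay in a peak of 2482 bp at 10.5-fold (−log10 q 23.9). Site 5 was 238 bp from a peak of 888 bp at 4.53-fold, which covered 38.1% of its window. Sites 6, 7 and 8 had 0% covered. Peaks of 5.13-, 8.97- and 3.11-fold held no listed start, and that of 8.97-fold lay in the record of TCF4-AS1. Counting any listed start, TCF4 was called for H3K4me3, as 68.6% of all genes were, and all 10 EMT factor genes had the call. On the same count H3K79me2 was called at 7, against 52%, with TCF4 gained, and H3K27me3 at 1, against 8.23%.

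H3K79me2 at TCF4 was scattered. It came in 67 peaks of 1.66- to 2.59-fold with −log10 q of at most 1.28, which covered 0% of the first 40 kb, 25.3% of the stretch from 40 to 50 kb that holds sites 2 to 4, and 62.1% of that from 70 to 80 kb. Past site 2 it covered 46.3% of the next 5000 bp and past sites 9 and 10 0%. All 16 H3K27me3 peaks had q above 0.05, the strongest at 3.08-fold, and their median width was 165 bp.

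Among single listed starts, 16 of the 20 were called for H3K4me3, against 68.1% of the 22155 listed starts of protein-coding genes, and 0 of the 20 for H3K27me3, against 6.64%. CpG counts ran beside these differences. The 16 starts called for H3K4me3 had 2 to 27 CpGs in the 250 bases before them, with a median of 15.5, and the 4 starts without the call, all in TCF4, had 0 to 5, with a median of 1.5. The ranges overlapped through TCF4 site 10, which had 2 CpGs in a peak shared with site 9, and site 5, which had 3. Within TCF4 the called starts had 26, 8, 16, 3, 18 and 2 CpGs and the others 2, 0, 1 and 5. ZEB1 site 7, with 7 CpGs, was the poorest of the 7 ZEB1 starts, and its window was the least covered, at 61.6%. The order did not hold among the other ZEB1 starts. Site 6, with 18 CpGs, had 84.6% covered, and sites 1 and 3, with 15 and 14, had 100%. Sites 6 and 7 are the last along the gene in the peak that held all 7. Sites of 1 gene share peaks and sequence, so these are a description and were not tested.

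**Figure D4:**
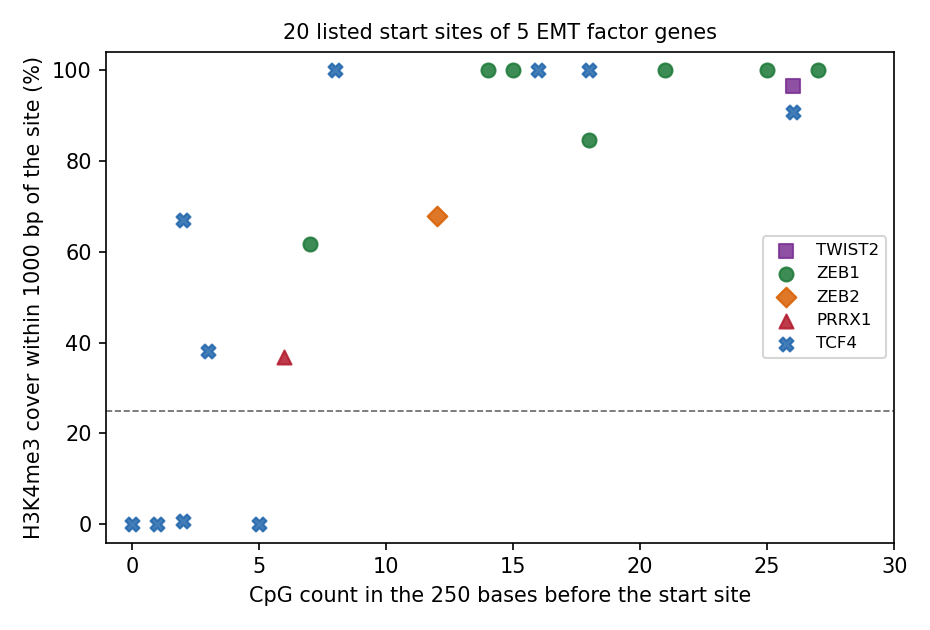
CpG count in the 250 bases before each of the 20 listed start sites of 5 EMT factor genes (x axis) and percent of the 2 kb around it covered by H3K4me3 peaks (y axis), with the threshold of 25% dashed. Starts with 6 or more CpGs all lie above the threshold, and the 4 below it belong to TCF4.

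The start-site H3K4me3 peaks of the 9 called genes fell into a lower and an upper range of width. SNAI1, SNAI3 and PRRX1 had widths of 1216, 1629 and 1739 bp. TWIST1, ZEB1, TWIST2, ZEB2, SNAI2 and FOXC2 had 4769, 4880, 4907, 5050, 5940 and 6364 bp, with a gap between. Among all protein-coding genes with the call, the fullest bin of 250 bp, from 3000 bp with 759 genes, lay inside this gap. As few as 9 values can leave a gap in a continuous spread of widths, so the gap does not show separate classes. The median of the 9 called genes was 4880 bp, beside 3490 bp over the 13242 protein-coding genes with the call. At 4000 bp or wider, a limit chosen after the values were seen, 6 of 10 EMT factor genes had such a peak at the start, against 26.6% of all genes. H3K79me2 was called at 6 of the 6 with a wide peak, against 94.2% of all genes called for H3K4me3 with a peak that wide, and at 0 of the 3 with a narrower peak, against 59.3%. The shares among all genes ran the same way, ZEB2 lost its H3K79me2 call at q of 0.05 or below, and the match was noticed in the data and not tested.

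**Figure D5:**
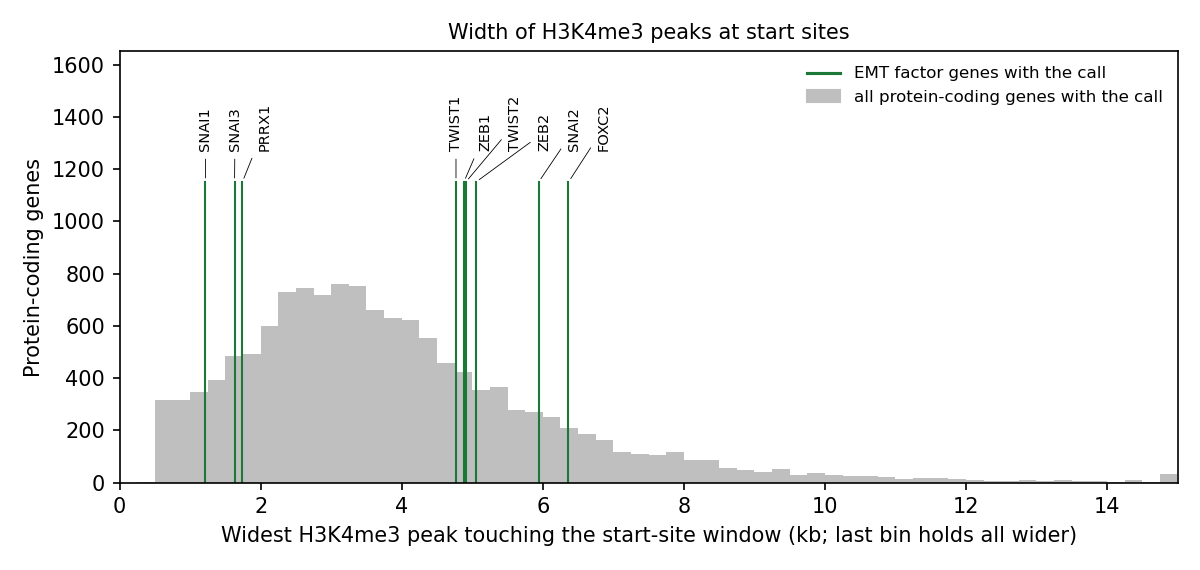
Width in kb of the widest H3K4me3 peak touching the start-site window, for the 9 EMT factor genes with the call (green lines) and for all 13242 protein-coding genes with the call (grey bars, bins of 250 bp). SNAI1, SNAI3 and PRRX1 lie between 1216 and 1739 bp and the other 6 between 4769 and 6364 bp.

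By their 3 start-site calls, SNAI2, TWIST1, TWIST2, ZEB1, ZEB2 and FOXC2 shared H3K4me3 with H3K79me2, the combination of 48.4% of protein-coding genes. Related genes with the same calls include FOXC1, the paralog of FOXC2, the E protein genes TCF3 and TCF12, and ID1, whose product binds and blocks E proteins. SNAI1 and PRRX1 had H3K4me3 alone, like 14.2% of genes, among them PRRX2, ID2 and GSC. SNAI3 had H3K4me3 with H3K27me3, like 3.55% of genes, among them SCRT1 and SCRT2, which encode the SNAIL relatives of neurons, ID4 and HAND1. With q of 0.05 or below SNAI3 kept both calls, while SCRT2 and HAND1 had 0% of the window under H3K4me3. TCF4 had no call at the end of its record, like 28.7% of genes.

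In the lists of related genes, chosen with earlier results of these data known, H3K4me3 was called at 11 of 12 paralogs and partners, 9 of 10 other factors linked to EMT, 12 of 12 inducers and cofactors, 13 of 14 epithelial targets and guards and 10 of 12 mesenchymal targets. H3K79me2 was called at 5, 5, 9, 11 and 3 of them, and H3K27me3 at 4, 0, 0, 3 and 0. The calls of H3K4me3, H3K79me2 and H3K27me3 covered 66.3%, 49.9% and 7.47% of protein-coding genes. With q of 0.05 or below the counts, in the same order of lists, were 9, 9, 12, 12 and 10 for H3K4me3, 5, 4, 9, 6 and 2 for H3K79me2, and 4, 0, 0, 2 and 0 for H3K27me3, beside 65%, 42.6% and 4.7% of all genes. Among epithelial genes CDH1 had H3K4me3 at 12.4-fold and H3K79me2 at 2.32-fold, a call that rested on peaks above q of 0.05, and H3K27me3 lay at OVOL1 (6.83-fold), OCLN (3.46-fold) and OVOL2 (2.85-fold, 0% covered at q of 0.05 or below). GRHL2 was the epithelial gene without an H3K4me3 call, at 0% covered. The H3K4me3 call at OVOL1, with 54.0% covered, rested on peaks above q of 0.05. OVOL1 and OVOL2 encode repressors known to hold down EMT factors. Among mesenchymal targets H3K79me2 lay at ITGA5 (4.14-fold), VIM (3.44-fold) and ACTA2 (2.42-fold, 0% covered at q of 0.05 or below), and the N-cadherin gene CDH2 had H3K4me3 at 23.3-fold with 5.24% of its inward window under H3K79me2. For the TGF-beta signal that induces EMT, TGFBR2 had H3K4me3 at 11.6-fold and H3K79me2 at 4.54-fold. The ligand gene TGFB1 had H3K4me3 at 22.3-fold and H3K79me2 at 2.74-fold, over 92.5% of its inward window. TGFB2 and TGFB3 had H3K4me3 at 12.3- and 16.0-fold and 0% of that window under H3K79me2.

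The labelled cell type was checked by marker genes. H3K4me3 was called at 6 of 7 basal markers, TP63 being the exception, and at 4 of 4 epithelial markers, 0 of 3 blood markers, 0 of 2 endothelial markers and 1 of 3 fibroblast markers, COL1A1. H3K79me2 was called at 6, 4, 0, 1 and 0 of them, PECAM1 being the endothelial gene. Among all protein-coding genes these calls covered 66.3% and 49.9%. TP63 was also without both calls when listed starts were counted. Peaks deeper inside the TP63 record were not examined, so the gene is not shown to lack H3K4me3. With q of 0.05 or below H3K79me2 was left at 2 of 4 epithelial markers, against 42.6% of all genes. CDH1 and EPCAM were lost. KRT8 and KRT18, both on chromosome 12, had the same width and fold for H3K4me3 (4781 bp at 16.5-fold) and for H3K79me2 (4140 bp at 3.16-fold). Their calls appear to rest on the same peaks and are not separate observations, also at q of 0.05 or below. Counting listed starts instead of the record's end, KRT8 had 0% covered by H3K4me3 and 5.82% by H3K79me2.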

How the data were processed

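Peak lists of 3 of the 4 MCF10A samples were used, 1 library per mark. Bowtie2 2.3.1, MACS2 2.1.1 and build hg38 are named in the submitters' processing notes, and the peak names carry a p threshold of 0.05. The deposited fold enrichment gives the signal as a ratio to the peak caller's local background, and the deposited −log10 p and −log10 q are the caller's own values. Columns follow the broad peak format for H3K4me3 and H3K79me2 and the narrow one for H3K27me3, so widths are not compared between marks. On chromosomes 1 to 22 and X, 67781, 112731 and 393202 peaks of H3K4me3, H3K79me2 and H3K27me3 were present, of which 33173, 16070 and 103280 had q of 0.05 or below. The control for peak calling and the handling of duplicate reads are not given in the sources used here. Folds describe peaks within their own list.

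Gene records came from a RefSeq table of GRCh38.p14, the same build, and strand and start sites from a RefSeq promoter table, which held 15812 of the 19970 protein-coding genes. Covered bases were counted with Python 3.11.15, pandas 2.3.3 and numpy 2.4.6, and the counting was tested on simulated intervals. Members and lists were chosen with earlier results of these data known. The text names all members, gene records within 10 kb that their main peaks touch, and from each related list genes by covered share, fold or exception. CDH1 was named outside these rules, after its values were seen. Alternatives were other peak thresholds, windows, flanks and covered shares.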

Additional observations from a re-analysis of the deposited data

How the results depend on the processing

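H3K4me3 counts were stable: 9 or 10 of the 10 genes had it at the start site under all 9 alternatives, with TCF4 gained at 1 bp of overlap or any listed start, a choice made after seeing the data. H3K79me2 at the start site, 6 genes, numbered 2 when peaks needed −log10 q of 5 (12.2% of all genes) and 1 when they needed 5-fold (3.42%). H3K27me3 there, 1 gene, was at 0 for both thresholds (1.09% and 1.5% of all genes), at 3 for 1 bp of overlap (19.6%) and at 2 for peaks joined across 3000 bp (13.3%). Over the record and 10 kb around it, H3K79me2 was at 5 genes in place of 8 with q of 0.05 or below (56.8% of all genes), at 2 with −log10 q of 5 (18.7%) and at 1 with 5-fold peaks (5.65%). H3K27me3 was at 2, 0 and 0 genes in place of 5 in the same settings (19.3%, 3.41% and 5.44%), and at 3 with 2000 bp required (19.9%). Without bases over other gene records, an alternative added after seeing the data, it was also at 3. The share of all genes was not computed for that setting, so this count has no comparison. The median covered bases per gene were 6256 for H3K4me3, 8131 for H3K79me2 and 453 for H3K27me3. Peaks with q of 0.05 or below gave 6093.5, 2269.5 and 0, peaks past the −log10 q limit 5410, 0 and 0, and peaks of 5-fold or more 4893.5, 0 and 0. Without flanks they were 3943, 3895.5 and 205.5, and with flanks of 20 kb 6877.5, 11383 and 1335.5. CpG per 100 bases at TCF4 site 6 was 0.667 over 300 bases and 0 over the 250 before the start. Stricter thresholds and smaller flanks let in fewer peaks by construction, and joined peaks, a 1 bp limit and wider flanks let in more. No paired analysis was possible because each mark has 1 library. Depth is not recorded in peak lists, so a gene without a peak is not shown to lack the mark.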

Other observations

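MicroRNAs of the miR-200 family, textbook repressors of ZEB1 and ZEB2, and miR-205 were looked up after the main results were known, and their clusters differed in marks. Their mature sequences from RefSeq (GRCh38.p14, plus strand) are printed 5′ to 3′ with the seed, bases 2 to 8, in capitals.
miR-200b-3p, chr1:1167160-1167181: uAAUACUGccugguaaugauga
miR-429, chr1:1169055-1169076: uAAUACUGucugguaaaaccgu
miR-200c-3p, chr12:6963742-6963764: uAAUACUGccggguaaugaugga
miR-200a-3p, chr1:1167916-1167937: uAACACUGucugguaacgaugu
miR-141-3p, chr12:6964155-6964176: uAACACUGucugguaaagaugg
miR-205-5p, chr1:209432166-209432187: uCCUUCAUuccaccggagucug
miR-200b, miR-429 and miR-200c share the seed AAUACUG, and miR-200a and miR-141 share AACACUG; both differ from the seed CCUUCAU of miR-205. On chromosome 12, miR-200c and miR-141 lay under an H3K4me3 peak of 16.9-fold and an H3K79me2 peak of 12501 bp at 4.86-fold (−log10 q 6.47). A stronger H3K4me3 peak, 5845 bp at 20.2-fold, lay 3622 bp from miR-200c. Other genes near this cluster were not examined, so these peaks cannot be assigned to the microRNAs alone. The share of all microRNAs under these marks was not computed. On chromosome 1, miR-205 lay under an H3K4me3 peak of 7781 bp at 21.2-fold and an H3K79me2 peak of 6264 bp at 3.77-fold (−log10 q 6.42). The other miR-200 cluster on chromosome 1, with miR-200b, miR-200a and miR-429, lay under 0 peaks of either mark. H3K79me2 covered 0 bp within 10 kb of it, and the strongest H3K4me3 peak near it, 11.3-fold, was 8642 bp from miR-200b. H3K4me3 and H3K79me2 at miR-200c, miR-141 and miR-205 thus stood beside the same marks at ZEB1 in the same libraries, and whether the same cells carry both was not tested.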
